A study of Homo sapiens with 2 samples.

Results

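The replication-dependent histone genes supply the core histones H2A, H2B, H3 and H4 and the linker histone H1 while DNA is being copied. They were taken here as every gene whose current symbol is H1-1 to H1-5, or H2AC, H2BC, H3C or H4C followed by a number, on chromosomes 1, 6 and 12. All 68 genes of the name table that meet this rule had RefSeq transcripts in both deposited files, out of 24765 genes that could be joined to a symbol. The set holds 5 H1, 17 H2A, 18 H2B, 13 H3 and 15 H4 genes, of which 54 lie on chromosome 6, 13 on chromosome 1 and 1 (H4C16) on chromosome 12. No expression value entered the choice.

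RNA was sequenced from A549, a cell line derived from a human lung adenocarcinoma, given in the labels as non-small cell lung cancer. The shPSPC1 cells carried a short hairpin RNA against PSPC1, an RNA-binding protein of paraspeckles and a partner of NONO and SFPQ. The shLacZ control cells carried a hairpin against the bacterial gene LacZ, which has no human target. Both were grown with 10% serum and 1% penicillin and streptomycin, and each condition has 1 library, so differences have no replicate check and no p-values are given. The labels do not say whether the cells were a clone or a pool, or how long the hairpins had been present.

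From the deposited intervals, the depth came to 57100000 fragments in the shPSPC1 and 56200000 in the shLacZ library. Levels are FPKM, that is, fragments for each kilobase of transcript relative to all mapped fragments. Values after ± are half-widths of the 95% intervals that Cufflinks gave, which cover error within a library only. Log2 ratios are shPSPC1 over shLacZ with 1 FPKM added to each value, so they understate the difference of weakly expressed genes.

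The targeted gene was lower in the library labelled for its knockdown. With the fragments of annotated and assembled transcripts added up (estimated fragments, put back on the FPKM scale), PSPC1 stood at 13.3 FPKM in shPSPC1 and 23.9 FPKM in shLacZ cells, a log2 ratio of -0.80. Its RefSeq coding transcript alone was listed at 0 in shPSPC1, against 4.49 ± 0.541 FPKM in shLacZ. NONO and SFPQ had log2 ratios of 0.09 and 0.14. Of 7 epithelial markers 6 reached 1 FPKM, and their summed level was 2873 FPKM in shPSPC1 and 3644 FPKM in shLacZ, so this list too was lower in shPSPC1. Of the 9 leukocyte, 6 fibroblast, 5 endothelial and 4 alveolar markers, only CD14 reached 1 FPKM. The leukocyte marker CD3E and the fibroblast marker COL1A2 were listed at 0 in both files, and the alveolar marker SFTPC stood near 0, at 0.0214 FPKM in shPSPC1 and 0.0176 FPKM in shLacZ cells.

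Genes of this kind lie in dense clusters, most have no intron, and their transcripts end in a conserved stem-loop in place of a poly(A) tail. The stem-loop is bound by SLBP, and cleavage just after it is directed by the U7 small nuclear RNA particle. NPAT, a target of cyclin E and CDK2, drives their transcription at histone locus bodies when cells enter S phase, and the messages are degraded when DNA synthesis stops.

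The stem-loop is the feature these transcripts share and the signal that sets them apart from polyadenylated messages, and it was searched for in GENCODE release 29 transcripts of the 68 genes. Transcripts of 28 genes ran at least 60 bases past the stop codon, and all 28 genes held the stem-loop in such a transcript. H2BC18 and H2BC5 each also had a transcript without it, running 544 and 384 bases past the stop codon. With shorter tails included, 31 genes held it, at 22 to 67 bases after the stop codon (median 36). Outside the set, 9 of 19634 coding genes (0.046%) held such letters anywhere in a transcript, a wider search than that after the stop codon in the set. The 6 letter forms follow with 5 bases to each side, and the capitals mark the 16 bases of stem and loop.
H3C14: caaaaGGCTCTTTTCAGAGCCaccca
H4C11: taaaaGGCCCTTTTCAGGGCCaccct
H2BC4: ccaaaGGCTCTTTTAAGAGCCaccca
H4C14: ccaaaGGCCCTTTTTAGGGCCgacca
H2AC11: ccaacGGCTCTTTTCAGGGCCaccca
H3C6: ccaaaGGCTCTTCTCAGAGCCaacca
The form of H3C14 was found in 17 genes of classes H2A, H2B and H3. Every H4 gene with a stem-loop had the letters of H4C11 (5 genes) or H4C14 (3 genes), and no gene of another class had either. H4C14 and H4C15, which are taken up below, share the form of H4C14 with H4C9.

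In both libraries most of the set was strongly expressed. By their RefSeq transcripts, 42 members reached 100 FPKM in shPSPC1 and 47 in shLacZ cells, and 52 members reached 1 FPKM in shPSPC1 and 60 in shLacZ cells. H2AC1, H2BC1 and H4C6 were listed at 0 in both files. H1-1, a linker histone gene, was listed at 0 in shPSPC1 and rested on 2 fragments (0.0574 FPKM) in shLacZ, and H4C7 was listed at 0 in shPSPC1 and rested on 1 fragment in shLacZ. In all, 13 members had a mean under 10 FPKM, and for these the data give little precision.

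**Figure D1:**
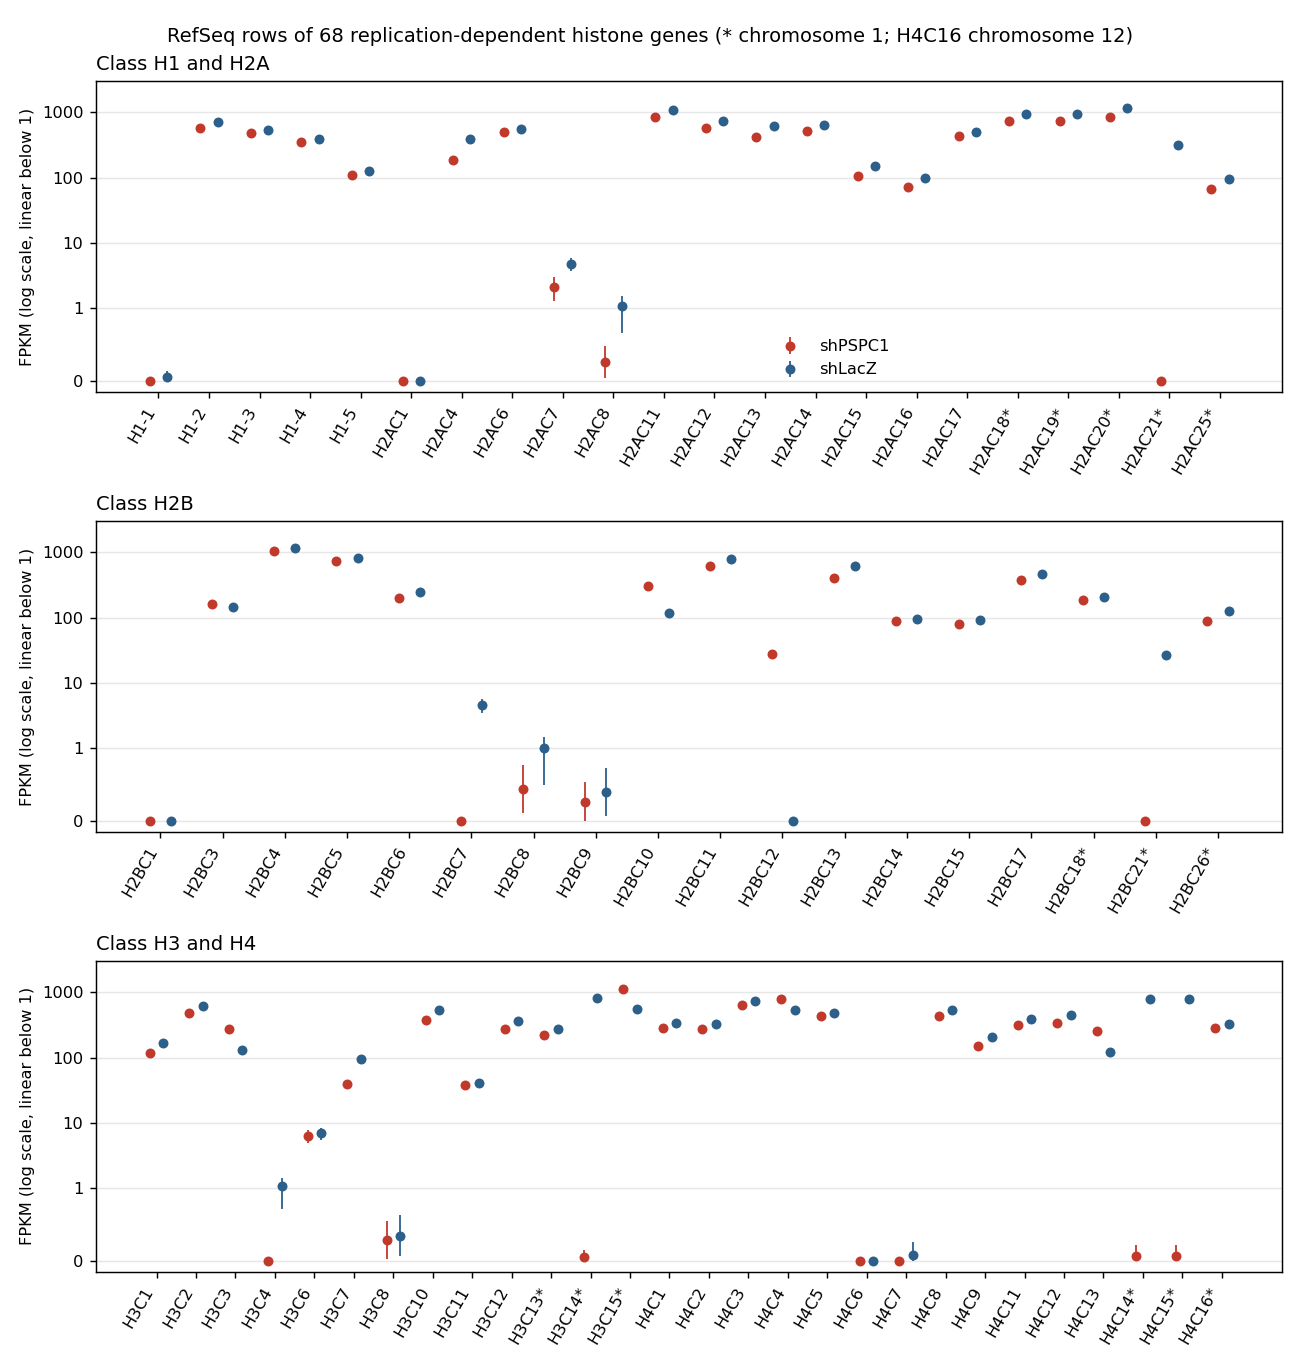
FPKM of the RefSeq rows of each gene (vertical axis, log scale that is linear below 1) in the shPSPC1 (red, left) and shLacZ (blue, right) library, with 95% Cufflinks intervals as bars and an asterisk for chromosome 1. In most pairs of points the red one is slightly lower, and the red points of H3C14, H4C14 and H4C15 sit near 0 beside blue points at 823, 781 and 780 FPKM.

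The linker histones H1-2, H1-3 and H1-4 were the most abundant members of their class. H1-2 had 583 ± 8.48 FPKM in shPSPC1 and 699 ± 9.34 FPKM in shLacZ cells, H1-3 had 473 ± 7.36 FPKM in shPSPC1 and 543 ± 7.93 FPKM in shLacZ cells, and H1-4 had 354 ± 6.32 FPKM in shPSPC1 and 391 ± 6.68 FPKM in shLacZ cells. H1-5 was the weakest of the expressed H1 genes, at 110 ± 3.51 FPKM in shPSPC1 and 125 ± 3.76 FPKM in shLacZ cells. The order H1-2, H1-3, H1-4, H1-5 was the same in both libraries and its neighbours had intervals that do not overlap.

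Within each core class, genes were ranked by the mean of both libraries. H2AC20, H2AC11 and H2AC18 led class H2A. H2AC20 stood at 839 ± 16.1 FPKM in shPSPC1 and 1142 ± 17.2 FPKM in shLacZ cells, and H2AC11 at 844 ± 13.3 FPKM in shPSPC1 and 1083 ± 15.1 FPKM in shLacZ cells. In shPSPC1 cells the intervals of H2AC20 and H2AC11 overlap, so their order there cannot be read. Class H2B was led by H2BC4, with 1048 ± 16.4 FPKM in shPSPC1 and 1148 ± 17.2 FPKM in shLacZ cells. It was followed by H2BC5, with 721 ± 12.5 FPKM in shPSPC1 and 815 ± 13.4 FPKM in shLacZ cells, and by H2BC11, with 619 ± 11.7 FPKM in shPSPC1 and 774 ± 13.1 FPKM in shLacZ cells. By the same mean, class H3 was led by H3C15, an exact copy that is described below, then H3C2, with 482 ± 10.8 FPKM in shPSPC1 and 619 ± 12.1 FPKM in shLacZ cells, and H3C10, with 379 ± 9.27 FPKM in shPSPC1 and 530 ± 11 FPKM in shLacZ cells. Class H4 was led by H4C3 and H4C4, and H4C8 followed with 437 ± 12.1 FPKM in shPSPC1 and 525 ± 13.2 FPKM in shLacZ cells. In shLacZ cells alone the order was another, with H3C14 first in class H3 and H4C14 and H4C15 first in class H4.

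The set as a whole stood slightly lower in shPSPC1 cells. By RefSeq rows, 58 of 68 members had a log2 ratio below 0, 7 had one above 0 and 3 were at 0 in both files, with a median of -0.29 (quartiles -0.49 and -0.13). Over the 58 members above 0 in both files the median was -0.31. Among all genes at a mean of 10 FPKM or more, 50.8% of 4303 were below 0 and the median was -0.005. The summed FPKM of the set was 18980 in shPSPC1 and 24410 in shLacZ cells, 77.7% of the control (log2 ratio -0.36). H4C14 and H4C15 carry much of this difference in the sum, and without them it was 83.1% of the control. In bulk RNA, fewer cells in S phase and less histone RNA in each such cell cannot be told apart.

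A rule of size was used in place of a test: at least 1 FPKM in the higher library, a ratio past the fold limit, and intervals that do not overlap. By RefSeq rows 9 members were lower past 2-fold, against 2.09% of all 24765 genes, and 5 were higher, against 2.08% of all genes. Of the 55 members at a mean of 10 FPKM or more, 7 were lower and 5 higher past 2-fold. Among 574 other genes up to 1000 bases at that mean, 20 were lower and 14 higher. At 1.5-fold 12 members were lower and 5 higher, against 4.39% and 4.03% of all genes in the same directions. Lower past 2-fold were H4C14, H3C14, H4C15, H2BC21, H2AC21, H2AC4, H3C7, H2BC7 and H3C4, and H2AC7, H2AC8 and H2BC13 joined them at 1.5-fold. Higher past both limits were H3C15, H3C3, H2BC10, H4C13 and H2BC12. Most of these large ratios went with a difference in how fragments were divided between rows of the files, as follows.

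Cufflinks lists, beside the RefSeq rows, transcripts that it assembled from the reads, and where such a row lies over a histone gene the fragments are split between them. The shPSPC1 file held 47148 assembled rows over all genes and places, and the shLacZ file 39901. Assembled rows with fragments covered exons of 20 members in the shPSPC1 and 13 in the shLacZ file, 26 members in all and 7 in both files. A second measure was therefore set beside the RefSeq rows. It adds to the fragments of a gene's RefSeq rows the share of each assembled row's fragments that falls on its exons, whatever that row's strand, and puts the sum back on the FPKM scale with the length of the longest RefSeq transcript. It is called locus fragments below.

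By locus fragments, 60 members were below 0 and 5 above, with a median of -0.26, where 49.4% of 5382 genes at a mean of 10 FPKM or more were below 0. The set held 383748 fragments in shPSPC1 and 484257 in shLacZ cells, 79.2% of the control before scaling to depth. Past 2-fold, 4 members were lower, against 0.513% of all genes by the same measure, and 1 was higher, against 0.404%. All genes include many weak ones. Among 974 other genes up to 1000 bases at a mean of 10 FPKM or more, 47 were lower and 50 higher past 2-fold. Of the 55 members at that mean by RefSeq rows, 4 were lower and 1 higher. The 4 lower were H4C14, H4C15, H3C14 and H2BC21 and the 1 higher was H3C15, all on chromosome 1. At 1.5-fold H2AC8 and H2BC10 joined the lower ones, against 1.51% of all genes, and none joined H3C15, against 0.884%. By estimated fragments, which count stranded assembled rows, 5 members were lower and 1 higher past 2-fold, against 0.804% and 0.723% of all genes, and 10 lower and 1 higher past 1.5-fold, against 2.04% and 1.41%. With the FPKM of those rows added instead, 6 were lower and 1 higher past 2-fold, against 0.876% and 0.707%, and 14 lower and 2 higher past 1.5-fold, against 2.44% and 1.93%. In all, 53 members were below 0 by each of 4 measures (RefSeq rows, RefSeq rows plus stranded assembled rows, estimated fragments, locus fragments).

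Over H3C3, H2BC10 and H4C13 the shLacZ file alone held a short assembled row, and the direction of each turned with the measure. Positions of genes and rows are the files' own and match GRCh37. H3C3, an H3 gene at chr6:26045639-26046097 on the plus strand, had 273 ± 8.06 FPKM in shPSPC1 and 131 ± 6.65 FPKM in shLacZ cells by its RefSeq row, a log2 ratio of 1.05. In the shLacZ file an assembled row of 399 bases with 279 FPKM lay over it, and by locus fragments H3C3 held 4598 fragments in shPSPC1 and 5728 in shLacZ cells, a log2 ratio of -0.32. H2BC10 (chr6:26273204-26273640, plus strand) had 304 ± 8.84 FPKM in shPSPC1 and 118 ± 6.93 FPKM in shLacZ cells, beside an assembled row of 406 FPKM in the shLacZ file only. By locus fragments its log2 ratio was -0.73, from 4730 fragments in shPSPC1 and 7840 in shLacZ cells, against 1.36 by its RefSeq row. H4C13 (chr6:27840926-27841289, minus strand) had 255 ± 9.45 FPKM in shPSPC1 and 122 ± 7.27 FPKM in shLacZ cells, beside a shLacZ row of 245 bases with 367 FPKM. Its locus log2 ratio was -0.06, so that H4C13 was close to equal in the libraries by fragments.

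H4C4, an H4 gene that passed the rule of size neither by RefSeq rows nor by locus fragments, turned in the same way. Its RefSeq row gave 776 FPKM in shPSPC1 and 529 ± 15.2 FPKM in shLacZ cells, and the shLacZ file held an assembled row of 280 bases with 1146 FPKM over it, while the shPSPC1 file held a row without a strand of 33.5 FPKM. Its log2 ratio was 0.55 by RefSeq rows and -0.43 by locus fragments. With stranded assembled rows added it was lower past 2-fold (-1.11), and by estimated fragments lower past 1.5-fold (-0.61). The interval of its shPSPC1 value starts at 0 in the file, as do those of H4C3 and H4C5 in shPSPC1 and of H2BC6 in shLacZ, although each of these 4 values is over 10 FPKM.

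The opposite case was an assembled row in the shPSPC1 file. H2AC4 (chr6:26033320-26033796, minus strand) had 183 ± 7.67 FPKM in shPSPC1 and 386 ± 9.32 FPKM in shLacZ cells by its RefSeq row, a log2 ratio of -1.07. A row of 463 bases with 170 FPKM lay over it in the shPSPC1 file only, and by locus fragments its log2 ratio was -0.18. H3C7 (chr6:26250370-26250835, minus strand) had 39.8 ± 3.49 FPKM in shPSPC1 and 95.9 ± 4.97 FPKM in shLacZ cells, with rows of 128 FPKM in the shPSPC1 and 11.1 FPKM in the shLacZ file over it. Its locus log2 ratio was 0.19, so the direction of H3C7 turned as well. H2BC13 (log2 ratio -0.59 by its RefSeq row) stood at -0.29 by locus fragments, and a shPSPC1 row of 1185 bases joined it to its neighbour H2AC13.

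H2BC12 is the only member listed at 0 in the shLacZ file and not in the shPSPC1 file. Its annotated 2-exon transcript had 28.0 ± 2.01 FPKM in shPSPC1 and was listed at 0 in shLacZ. Each file also held a single-exon row of nearly the same span, with 402 FPKM in shPSPC1 and 515 FPKM in shLacZ cells, and by locus fragments the log2 ratio of H2BC12 was -0.14. H2BC7, H2AC7 and H3C4 lie next to each other on chromosome 6 and were all weak. H2BC7 and H3C4 were listed at 0 in shPSPC1, against 4.63 ± 1.11 and 1.09 ± 0.369 FPKM in shLacZ. H2AC7 had 2.16 ± 0.838 FPKM in shPSPC1 and 4.83 ± 1.15 FPKM in shLacZ cells. Assembled rows ran across these genes in the shPSPC1 file, and by locus fragments they held 63 (H2BC7), 67 (H2AC7) and 79 (H3C4) fragments in shPSPC1, against 70, 100 and 110 in shLacZ. H3C4 and H2AC7 overlap each other, so part of these fragments is counted for both. H2AC8, with no assembled row, rested on 6 fragments (0.263 ± 0.215 FPKM) in shPSPC1 and 25 fragments (1.10 ± 0.442 FPKM) in shLacZ cells.

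**Figure D2:**
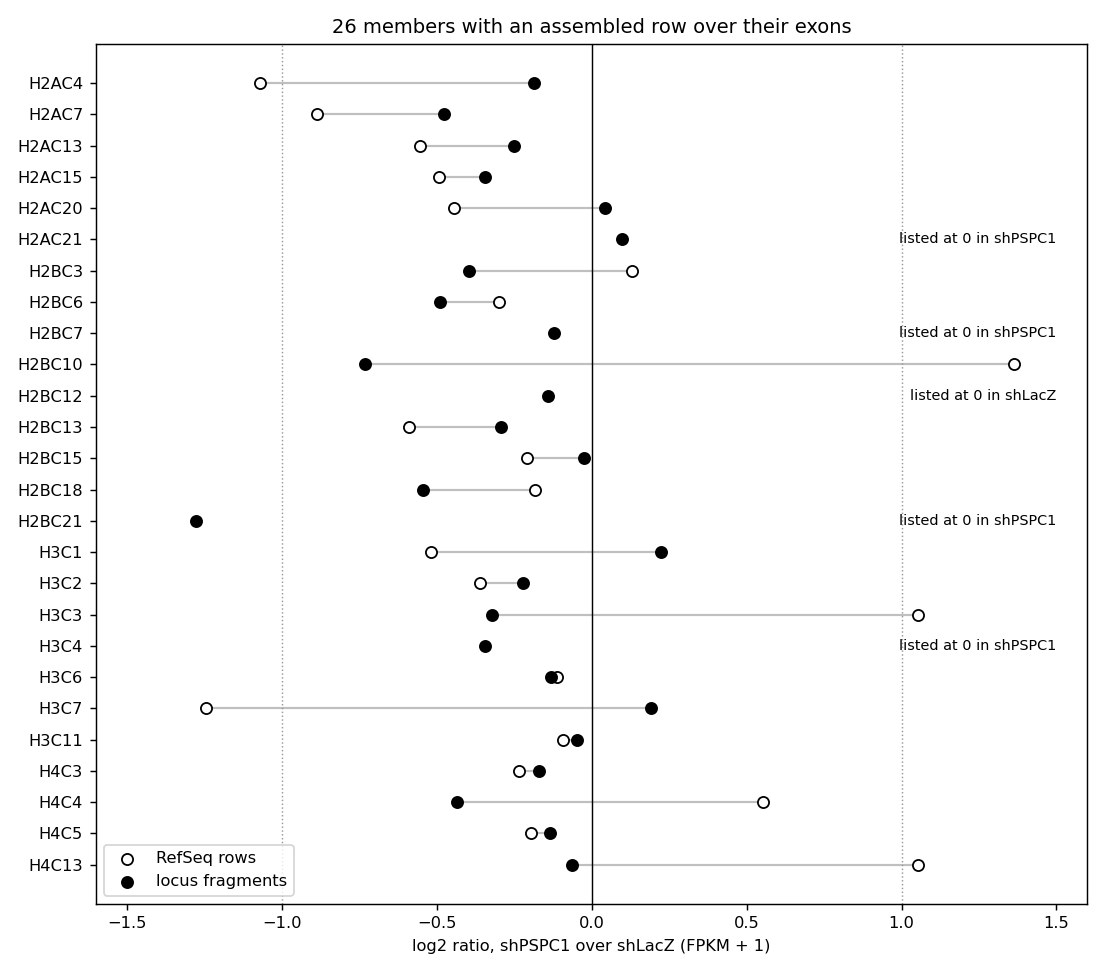
Log2 ratio, shPSPC1 over shLacZ (horizontal axis, FPKM + 1), of the 26 members with an assembled row over their exons, by RefSeq rows (open) and by locus fragments (filled), with dotted lines at 2-fold. The open points of H2BC10, H3C3 and H4C13 lie past 1 and their filled points below 0, and genes listed at 0 in 1 file have a filled point only.

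Of the 22 such members at a mean of 10 FPKM or more, 12 had a log2 ratio of 0.5 or more in size by RefSeq rows and 3 by locus fragments. The level itself can be compared most directly in the members that no assembled row touched. This group was defined after the data were seen: a mean of 10 FPKM or more, no assembled row over an exon in either file, and no exact copy elsewhere in the set. It holds 25 genes, of which 21 lie on chromosome 6, 3 on chromosome 1 and 1 on chromosome 12.

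All 25 were below 0, where 49.9% of 2385 genes of any kind with the same level and no assembled row were, and 38.1% of 388 other genes that were also up to 1000 bases long. The median log2 ratio was -0.27, within a range of -0.55 to -0.10, and 2 of the 25 reached 0.5 in size. The 388 short genes had a median of 0.06 and quartiles of -0.12 and 0.20. The Cufflinks intervals of the libraries did not overlap for 24 of the 25, the exception being H2BC14 with 87.4 ± 4.66 FPKM in shPSPC1 and 93.5 ± 4.84 FPKM in shLacZ cells. None of the 25 passed the 2-fold or the 1.5-fold rule of size, so the shared shift was small. Summed over the 25 genes, FPKM was 9780 in shPSPC1 and 11760 in shLacZ cells, 83.1% of the control.

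**Figure D3:**
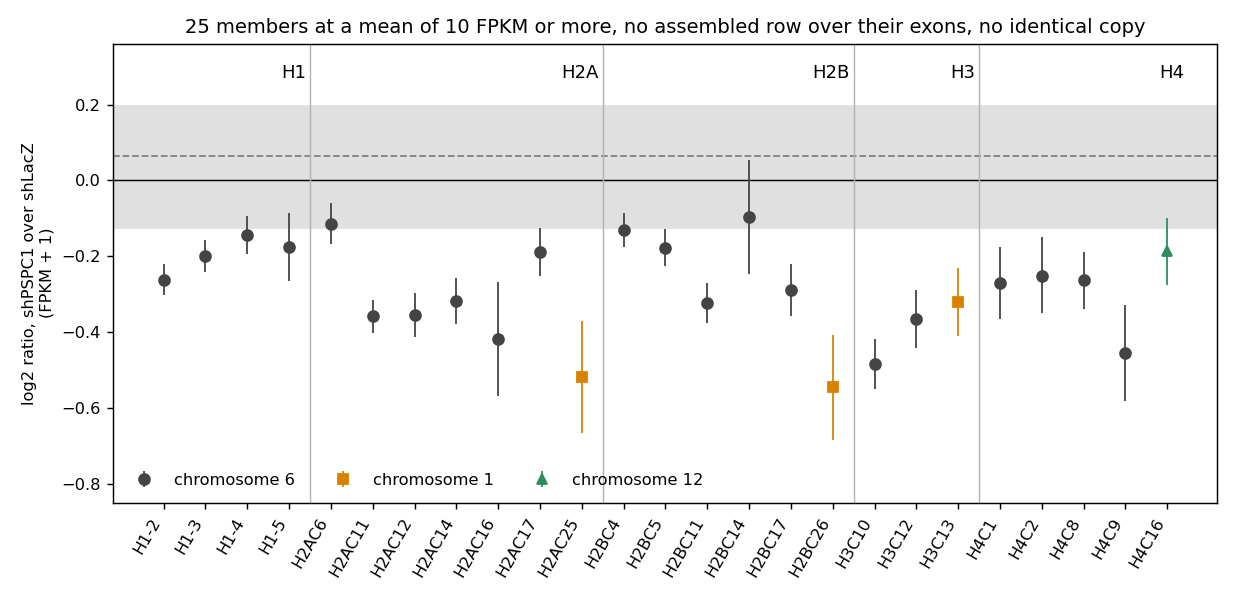
Log2 ratio, shPSPC1 over shLacZ (vertical axis, FPKM + 1), of the 25 members with no assembled row and no identical copy, by class, with bars from the Cufflinks intervals. The grey band and dashed line are the quartiles (-0.12 to 0.20) and median (0.06) of 388 other short genes, and all 25 points lie below 0.

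The classes differed little. By RefSeq rows the medians were -0.18 for H1, -0.42 for H2A, -0.19 for H2B, -0.36 for H3 and -0.25 for H4. By locus fragments they were -0.18, -0.34, -0.29, -0.22 and -0.26 in the same order of classes. Within the 25 members without assembled rows or copies, the ranges of the classes overlapped, except that those of H1 and H3 did not overlap each other. H1-2, H1-3, H1-4 and H1-5 ran from -0.26 to -0.14, the 7 H2A genes from -0.52 to -0.11, and the 6 H2B genes from -0.55 to -0.10. The 3 H3 genes ran from -0.48 to -0.32 and the 5 H4 genes from -0.46 to -0.19. The 4 H1 genes were thus close together, and no class stood clear of all the others. Class H1, whose members are the least alike in sequence (median identity of coding sequences 73.2%, against 83.3% to 89.2% within the core classes), had no assembled row over any member.

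By RefSeq rows the chromosome 1 genes had the lower values. The 13 genes had a median of -0.52, the 11 of them in the main cluster had one of -0.44, and the 13 had a summed FPKM of 3995 in shPSPC1 and 7000 in shLacZ cells, 57.1% of the control. The 54 genes of chromosome 6 had a median of -0.26 and a summed FPKM of 14690 in shPSPC1 and 17080 in shLacZ cells, 86.0% of the control. Much of the gap lay in H4C14 and H4C15, the only H4 genes on chromosome 1. The 7 chromosome 1 genes without an exact copy stood at 63.9% of the control by summed RefSeq rows. With locus fragments summed on the FPKM scale they stood at 91.5% and chromosome 6 at 82.9%. That order depends on the scale, in which a fragment of a short gene weighs more. Counted as fragments, the 7 genes held 46807 in shPSPC1 and 60735 in shLacZ cells. Chromosome 6 held 279770 in shPSPC1 and 332342 in shLacZ cells, so by this count the 7 genes were the lower ones relative to the control. By locus fragments the medians were -0.52 for the 13 genes of chromosome 1, as by RefSeq rows, -0.34 for the 11 in its main cluster and -0.24 for chromosome 6. H4C16, the gene on chromosome 12 at chr12:14923654-14924065, had 288 ± 9.02 FPKM in shPSPC1 and 328 ± 9.64 FPKM in shLacZ cells, a log2 ratio of -0.19.

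Only 3 chromosome 1 genes had neither an assembled row nor a copy. H3C13, next to the copied block, had 219 ± 7.24 FPKM in shPSPC1 and 274 ± 8.12 FPKM in shLacZ cells, a log2 ratio of -0.32 that falls among those of chromosome 6. H2AC25 and H2BC26 form a separate pair far along the chromosome, at chr1:228645065-228646259. H2AC25 had 66.8 ± 3.76 FPKM in shPSPC1 and 96.1 ± 4.52 FPKM in shLacZ cells, and H2BC26 had 87.3 ± 4.61 FPKM in shPSPC1 and 128 ± 5.6 FPKM in shLacZ cells. Their log2 ratios of -0.52 and -0.55 were the lowest of the 25 genes, and the intervals of these ratios (-0.67 to -0.37 and -0.69 to -0.41) overlap that of H3C10 on chromosome 6 (-0.55 to -0.42).

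On chromosome 6 the genes fall into 3 stretches. The first, from H2AC1 to H4C8, had a median of -0.18 over its 33 genes by locus fragments. The second, 5 genes around H2AC11, had -0.36, and the third, 16 genes from H2BC13 to H2BC17, had -0.29. In the members without assembled rows or copies the medians were -0.20 for the first stretch (9 genes), -0.36 for the second (4 genes) and -0.30 for the third (8 genes). Within these, the range of the third stretch (-0.48 to -0.10) overlapped both others, while the first (-0.27 to -0.11) and the second (-0.46 to -0.32) did not overlap each other. Their difference was not tested.

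Some members have the same coding sequence to the last base, so short reads from them cannot be placed on 1 copy by that sequence. The first 60 coding bases of the copied H4 and H3 genes are printed because the results on chromosome 1 turn on them. Beside them stand H4C11, among the closest other H4 genes, H4C4, the closest other H3 gene H3C13, and H3C2, the least alike of the H3 genes. The letters are those of GENCODE release 29, and the capitals mark bases that differ from H4C14 in the first group and from H3C14 in the second.
H4C14: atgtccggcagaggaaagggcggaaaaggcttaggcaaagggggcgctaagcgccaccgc
H4C15: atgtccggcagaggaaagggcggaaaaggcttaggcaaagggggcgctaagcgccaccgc
H4C11: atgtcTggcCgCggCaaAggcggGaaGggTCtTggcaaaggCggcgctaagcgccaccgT
H4C4: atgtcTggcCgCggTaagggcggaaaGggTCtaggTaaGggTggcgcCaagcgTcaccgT
H3C14: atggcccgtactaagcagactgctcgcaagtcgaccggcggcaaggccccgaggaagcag
H3C15: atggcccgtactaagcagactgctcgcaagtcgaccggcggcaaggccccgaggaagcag
H3C13: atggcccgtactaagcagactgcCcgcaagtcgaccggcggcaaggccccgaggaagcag
H3C2: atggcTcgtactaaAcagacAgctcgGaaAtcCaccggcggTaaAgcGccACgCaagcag
H4C14 and H4C15 have 0 differences over 312 bases, while H4C11 differs from them at 46 and H4C4 at 55. H3C14 and H3C15 have 0 differences over 411 bases, H3C13 has 12 and H3C2 has 70. The other exact copies were H2AC18 with H2AC19 and H4C11 with H4C12.

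Summing the copies removed the apparent opposition of H3C14 and H3C15. H3C14 (chr1:149812259-149812765) stood at 0.0511 FPKM, 1 fragment, in shPSPC1 and at 823 ± 13 FPKM in shLacZ cells. H3C15 (chr1:149824181-149824687) stood at 1122 ± 15.2 FPKM in shPSPC1 and 558 ± 10.7 FPKM in shLacZ cells. The pair had 1122 ± 15.2 FPKM in shPSPC1 and 1381 ± 16.9 FPKM in shLacZ cells, a log2 ratio of -0.30 (bounds -0.34 and -0.26), which lies in the range of the 25 genes above. H2AC18 and H2AC19 were nearly equal within each library, at 738 ± 11.8 FPKM each in shPSPC1 cells and 937 ± 13.4 and 935 ± 13.4 FPKM in shLacZ cells. Their sum was 1477 ± 16.7 FPKM in shPSPC1 and 1872 ± 18.9 FPKM in shLacZ cells, a log2 ratio of -0.34. H4C11 had 310 ± 10.6 FPKM in shPSPC1 and 393 ± 12 FPKM in shLacZ cells, and H4C12 had 339 ± 11.2 FPKM in shPSPC1 and 442 ± 12.8 FPKM in shLacZ cells. The sum of H4C11 and H4C12 was 649 ± 15.4 FPKM in shPSPC1 and 835 ± 17.5 FPKM in shLacZ cells, a log2 ratio of -0.36.

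H4C14 and H4C15 were the exception, since both copies were near 0 in the shPSPC1 file. H4C14 (chr1:149804221-149804616, plus strand) and H4C15 (chr1:149832330-149832725, minus strand) each stood at 0.0756 FPKM, 1 fragment, in shPSPC1. In shLacZ cells they stood at 781 ± 15.4 and 780 ± 15.4 FPKM, or 10265 and 10256 fragments. The 2 fragments of both copies in shPSPC1 were 0.00959% of the 20520 in shLacZ after scaling to depth, with an exact 95% Poisson interval of 0.00116% to 0.0346% that covers counting error only. No assembled row lay over either gene in either file, so locus fragments gave the same value. The difference was far larger than that of any other H4 gene with a mean of 10 FPKM or more, the next lowest being H4C9 at -0.46. H3C14, which lies between H4C14 and H4C15, also stood at 1 fragment in shPSPC1. H2AC18, H2AC19 and H3C15 lie between them as well, and stood at 738, 738 and 1122 FPKM in shPSPC1. The deposited files do not show whether the values near 0 are a level in the cells or a gap left by the processing of these copies, and the cause was not tested.

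**Figure D4:**
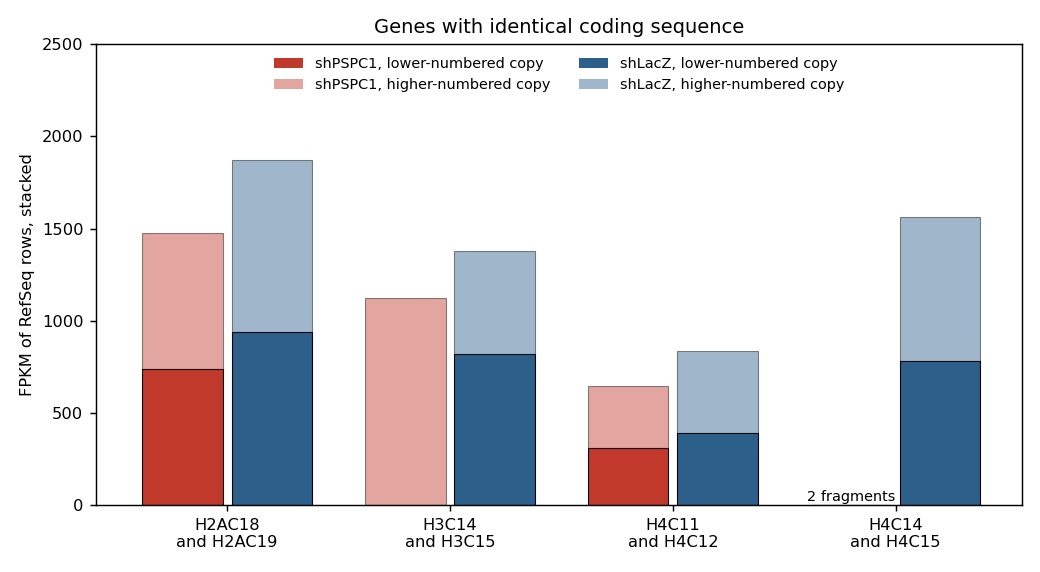
FPKM of RefSeq rows (vertical axis) of the 4 groups of genes with identical coding sequence, stacked by copy, in the shPSPC1 (left bar) and shLacZ (right bar) library. The shPSPC1 bars reach 1477, 1122 and 649 FPKM beside shLacZ bars of 1872, 1381 and 835 FPKM, and H4C14 with H4C15 has no visible shPSPC1 bar beside 1561 FPKM.

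A stretch of chromosome 1 with H2BC21, H2AC20 and H2AC21 showed the division of fragments between rows at its strongest. H2AC21 was listed at 0 in shPSPC1, against 311 ± 8.79 FPKM in shLacZ, and H2BC21 was listed at 0 in shPSPC1, against 26.7 ± 1.03 FPKM in shLacZ. In the shPSPC1 file a single row on the plus strand, chr1:149857769-149859729 with 230 FPKM, covered the 5' part of H2BC21, all of H2AC20 and all of H2AC21. In the shLacZ file a 2-exon row of 669 FPKM joined 393 bases of H2BC21 to 153 bases of H2BC18. H2BC18 itself, summed over both of its RefSeq transcripts, had 184 ± 4.15 FPKM in shPSPC1 and 209 ± 4.46 FPKM in shLacZ cells.

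All rows in the stretch chr1:149856010-149859729 together held 36661 fragments in shPSPC1, or 642.0 per 1000000 mapped fragments, and 36216 in shLacZ cells, or 644.4 per 1000000. With H2BC18 added the totals were 837.4 per 1000000 in shPSPC1 and 930.3 per 1000000 in shLacZ cells. By locus fragments H2AC20 and H2AC21 had log2 ratios of 0.04 and 0.10, and H2BC21 had -1.28, from 5585 fragments in shPSPC1 and 13505 in shLacZ cells. These 3 values assume that each assembled row was covered evenly, and how its fragments lie along the row was not tested.

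H2A and H2B genes often lie head to head and share the DNA between their starts. The set holds 12 such divergent pairs, with 239 to 346 bases between the starts. In 7 of them both genes had 10 FPKM or more in both libraries, and in all 7 both genes were below 0. Of the 55 members at a mean of 10 FPKM or more, 48 were below 0 by RefSeq rows and 50 by locus fragments. The shared direction is thus that of the set and does not set the pairs apart. Within the 7 pairs, the H2A and H2B log2 ratios differed by 0.04 at the median and by 0.29 at most, and 5 pairs lay within 0.1. Differences between unpaired H2A and H2B genes were not compared. By locus fragments 9 pairs reached 10 FPKM in both libraries, and in 8 both genes were below 0. The exception, H2AC20 with H2BC21, differed by 1.32, and the next largest difference was 0.32. H2AC6 and H2BC4, the most abundant H2B gene, had -0.11 and -0.13, and H2AC11 and H2BC11 had -0.36 and -0.32. H2AC13 and H2BC13 had -0.55 and -0.59 by RefSeq rows and -0.25 and -0.29 by locus fragments. The same shPSPC1 row of 1185 bases covers both genes, so by construction both moved between the measures. Of the 7 pairs, H2AC15 and H2BC15 were the farthest apart by RefSeq rows, at -0.49 and -0.21.

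**Figure D5:**
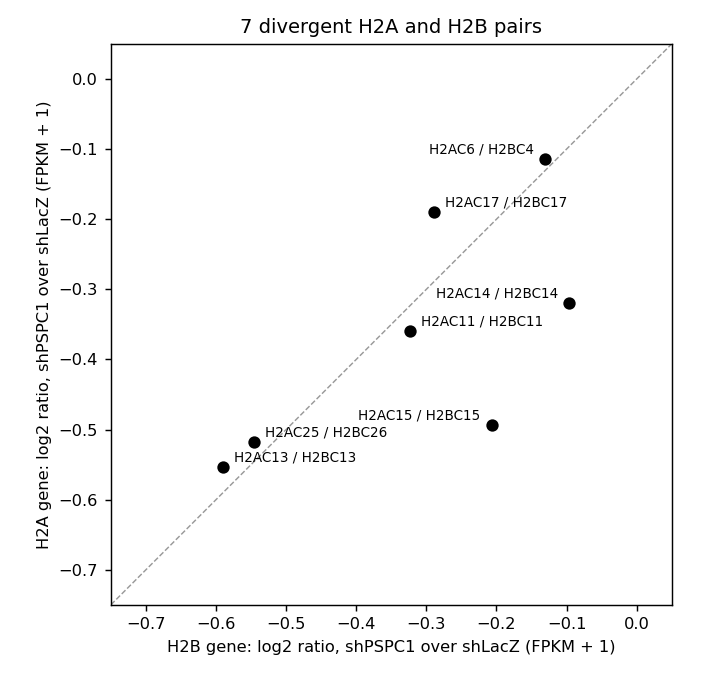
Log2 ratio, shPSPC1 over shLacZ (FPKM + 1), of the H2A gene (vertical axis) against its divergent H2B neighbour (horizontal axis) for 7 pairs at 10 FPKM or more, with the line of equality dashed. All 7 points lie below 0 on both axes, and H2AC15 with H2BC15 lies farthest from the line.

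Promoter windows of 300 bases around the start were available for 63 members (RefSeq, assembly GRCh38.p14) and were searched on both strands. TATAAA was found in 43 of 63, against 11.5% of all 35116 windows, and CCAAT in 53 of 63, against 34.6%. The octamer ATTTGCAT, a site known for the factor POU2F1 in H2B genes, was found in 26 of 63, against 1.8% of all windows. By class, the octamer was in 11 of 16 H2A, 14 of 18 H2B, 1 of 11 H3, 0 of 5 H1 and 0 of 13 H4 windows. CCAAT was in every H1, H2A, H2B and H3 window but in 3 of 13 H4 windows. The window of H2AC11, which takes in DNA shared with H2BC11, is printed as an example of a pair whose genes had close ratios, and that of H4C14 for the copies that both stood near 0 in shPSPC1. Capitals mark matches to these 3 motifs or their complements, and overlapping matches run together.
H2AC11, chr6:27132793-27133092, plus strand: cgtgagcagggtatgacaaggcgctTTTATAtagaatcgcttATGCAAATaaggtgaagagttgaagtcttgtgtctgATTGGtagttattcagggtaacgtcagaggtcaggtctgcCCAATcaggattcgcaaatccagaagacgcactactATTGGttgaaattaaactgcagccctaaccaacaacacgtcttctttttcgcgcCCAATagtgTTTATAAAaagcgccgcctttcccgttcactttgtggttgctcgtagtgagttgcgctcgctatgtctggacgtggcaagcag
H4C14, chr1:149832407-149832706, plus strand: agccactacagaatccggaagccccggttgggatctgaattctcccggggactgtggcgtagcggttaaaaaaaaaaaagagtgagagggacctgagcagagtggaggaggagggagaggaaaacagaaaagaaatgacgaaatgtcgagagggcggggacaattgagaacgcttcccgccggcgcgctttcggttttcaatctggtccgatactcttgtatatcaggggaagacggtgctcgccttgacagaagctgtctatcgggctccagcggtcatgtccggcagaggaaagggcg
H2AC11 held 3 matches to TATAAA, a pair of which overlap, 4 to CCAAT and 1 to the octamer. None of the 3 motifs was found in these letters of H4C14, and the window of H4C15 has the same letters. A match is a description of the sequence, and binding was not measured.

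Histone transcripts that are not cut at the stem-loop run on past it, so fragments after the annotated 3' ends were counted as well. Counted were assembled rows that continued from the gene into the 1000 bases after its annotated end, on its own strand or without a strand. Such rows were present for 8 members in shPSPC1 and 4 in shLacZ cells. The whole shPSPC1 file also held more assembled rows, 47148 against 39901 in shLacZ, and more without a strand, 36255 against 29208. The share over all genes was not counted, so a difference particular to histone genes cannot be read from these counts. Of the members, H2AC20 had the most, 9244 fragments in shPSPC1, from the long row that also covers H2AC21. H4C3, H4C4 and H4C5 had such rows in shPSPC1 only, holding 858, 1554 and 595 fragments, which were 10.1%, 16.1% and 11% of the fragments at each gene. H2BC6 had one in shLacZ only, with 855 fragments or 19.98%, and H3C7 likewise with 499 fragments or 26.2%. H3C4, H2AC7 and H2BC7 had 46.4, 47.8 and 0.7 fragments in shPSPC1 only, and H2BC3 had 27.5 in shLacZ only. H3C6 had one in both, with 206 fragments in shPSPC1 and 228 in shLacZ cells. The rows of H4C3, H4C4, H4C5 and H2BC6 carry no strand in the files, so they cannot be told apart from antisense or neighbouring transcription. Rows on the opposite strand were left out of these counts, and they reached past the ends of H2AC21, H2BC7, H2AC13 and H2AC15 in shPSPC1 and of H3C2 in shLacZ.

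Other genes of histone supply were compared from lists chosen with earlier results of these data known. Of 40 genes for histone transcription and 3' end processing, 20 were below 0 and the median log2 ratio was -0.004 by RefSeq rows. SLBP, which binds the stem-loop, had 47.9 ± 1.47 FPKM in shPSPC1 and 53.8 ± 1.57 FPKM in shLacZ cells, and NPAT had 4.78 ± 0.241 FPKM in shPSPC1 and 4.19 ± 0.227 FPKM in shLacZ cells. The most abundant, SNRPB and SNRPD3, which form part of the ring of U7 and other small nuclear particles, had log2 ratios of -0.08 and 0.11. Past 2-fold by RefSeq rows, CSTF2T, NFYB, TUT7, NFYA and TUT4 were lower and the processing subunit CPSF2 was higher. With assembled transcripts counted as estimated fragments, none of these 6 passed, at -0.05, 0.16, 0.10, -0.08, 0.17 and -0.04, and the list's median was 0.03.

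Of 47 measured genes of S phase and the G1/S transition, 33 were below 0 by RefSeq rows and 35 by estimated fragments, with medians of -0.13 and -0.12. The direction of the median was that of the histone genes and its size smaller. PCNA, the sliding clamp of DNA polymerase, had log2 ratios of -0.03 by RefSeq rows and 0.05 by estimated fragments, and MCM7, a subunit of the replicative helicase, had 0.65 and -0.17. Among the genes lower past 2-fold by RefSeq rows were CDC6, UHRF1, PRIM1 and CDC7, and of these only the primase subunit PRIM1 was so by estimated fragments, listed at 0 in shPSPC1 against 28.6 ± 1.25 FPKM in shLacZ. CDC6, which loads the helicase, stood at -0.42 by estimated fragments. The part of S phase cells in the histone values was not tested.

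A list of 24 replacement histones and histone chaperones, whose messages are mostly polyadenylated, shares ASF1B, CHAF1A and CHAF1B with the S phase list. Of the 24, 15 were below 0 by RefSeq rows and 16 by estimated fragments, and the median was -0.05 by both measures. H2AZ1, the most abundant, had 184 ± 4.06 FPKM in shPSPC1 and 194 ± 4.19 FPKM in shLacZ cells, and MACROH2A1 had 98.8 ± 2.61 FPKM in shPSPC1 and 97.0 ± 2.44 FPKM in shLacZ cells. H3-3B, HAT1, H2AX and ATRX passed 2-fold by RefSeq rows, the first pair lower and the others higher, and by estimated fragments they stood at -0.03, 0.17, -0.08 and 0.13.

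The replication-dependent histone RNAs lack a poly(A) tail, and no source used here says whether the libraries were selected for poly(A) RNA. RNAs on a list of mostly short nuclear RNAs without such a tail were abundant in both. RMRP, the RNA of RNase MRP, had 92140 FPKM in shPSPC1 and 104500 FPKM in shLacZ cells, and RN7SK, a regulator of transcription elongation, had 90970 FPKM in shPSPC1 and 89990 FPKM in shLacZ cells. Of 26 such RNAs measured, 15 were below 0 and the median log2 ratio was -0.05. MALAT1 alone was lower past 2-fold by RefSeq rows, listed at 0 in shPSPC1 against 146 ± 1.10 FPKM in shLacZ, and stood at -0.05 by estimated fragments. RNU5A-1 had 125 ± 125 FPKM in shPSPC1, a half-width as large as the value, and was listed at 0 in shLacZ by its RefSeq row. Its log2 ratio was 6.98 by RefSeq rows and turned to -3.22, lower past 2-fold, by estimated fragments.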

How the data were processed

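RNA-seq reads of 1 library per condition were processed by the authors with CASAVA 1.8.2, TopHat2 2.0.7 and Cufflinks 2.1.1, per the submitters' processing notes. The deposited transcript files give FPKM and 95% bounds, per the attribute names in the files, in a text field of other content. No source used here names the genome build. Scaffold names and positions are those of GRCh37.

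RefSeq rows were joined to genes by accession with a RefSeq table (GRCh38.p14, names only), and 2291 accessions found no gene. A gene's FPKM is the sum of its RefSeq rows. Fragments implied by the intervals of lone rows were whole within 0.02 for 95.1% of 15452 rows in shPSPC1 and 95.4% of 13603 in shLacZ, which gave depth and mean fragment length (165.6 and 162.2 bases). Estimated fragments sum FPKM times effective length over RefSeq rows and assembled rows on the gene's strand. Such an assembled row had to share an intron with the gene or have at least 0.5 of its exon bases in it. Where several genes met this, the row went to the gene with the most shared introns, then the largest share of bases. Of 24765 genes, 10102 in shPSPC1 and 10087 in shLacZ reached 1 FPKM, and the 9579 that did in both had a median log2 ratio of -0.002. The number of fragments behind a value sets its interval, and the weakest members rest on 1 to 25 fragments.

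Named were members past a rule of size, all H1 genes, H4C16, the 3 most abundant per class, copies and members listed at 0 in 1 file, and from other lists those past 2-fold, the 2 most abundant, SLBP and NPAT. The design called for copies by protein, but no protein table was used and identical coding sequence took its place. The members and lists were chosen with earlier results of these data known. Alternatives were the added assembled rows, estimated and locus fragments, a pseudocount of 0.1, members at 1 FPKM, a rescaling without mitochondrial genes, summed copies and no interval condition. Steps were run in Python 3.11.15 with pandas 2.3.3, numpy 2.4.6, scipy 1.17.1 and edlib 1.3.9.post1, and tested on simulated data.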

Additional observations from a re-analysis of the deposited data

How the results depend on the processing

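The median log2 ratio of all members kept its direction under every alternative, between -0.32 and -0.21, as did those of both clusters and of each class. By estimated fragments 5 members were lower and 1 higher past 2-fold, and 1 was higher past 1.5-fold. By locus fragments 4 were lower and 1 higher past 2-fold, and 6 lower and 1 higher past 1.5-fold, and class H3 had a median of -0.22. With stranded assembled rows added, 1 was higher past 2-fold and 2 past 1.5-fold. The log2 ratio of summed FPKM was -0.50 with those rows, -0.44 by estimated fragments and -0.28 after rescaling to the same total without mitochondrial genes, which multiplied shPSPC1 values by 1.061 (0.09 on the log2 scale). Rescaled medians were -0.091 for H1 and -0.27 for H3, and all 25 members without assembled rows or copies stayed below 0. Those 25, an alternative chosen after seeing the data, gave a summed log2 ratio of -0.27 and 0 lower and 0 higher members past either limit. Among members past a rule of size, directions turned for H3C15 with copies summed (-0.30), for H2AC21 by locus fragments (0.10), for H3C4 by estimated fragments (0.02), and, with added rows, by estimated and by locus fragments in that order, for H3C3 (-0.58, -0.36, -0.32), H3C7 (0.80, 0.46, 0.19), H2BC10 (-0.78, -0.82, -0.73), H2BC12 (-0.26, -0.13, -0.14) and H4C13 (-0.94, -0.12, -0.063). Among the other members they turned for H4C4 (-1.11, -0.61, -0.43 in the same order) and, by locus fragments, for H3C1 (0.22), H2BC3 (-0.40) and H2AC20 (0.04). By construction these measures count assembled rows that the RefSeq rows leave out, and locus fragments also count RefSeq rows of overlapping genes. No paired analysis was possible because each condition has 1 library. Depth limits the 13 members under 10 FPKM, and no alternative stands in for a replicate.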
